A study of Rattus norvegicus with 3 samples.

Results

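Astrocyte nuclei of the lesion epicenter were taken from single-nucleus RNA libraries of injured rat spinal cord. Nuclei were chosen by their UMI counts: a nucleus was taken as an astrocyte nucleus when it held a unique molecular identifier (UMI, 1 counted RNA molecule) of at least 3 of the 6 astrocyte markers Aqp4, Slc1a2, Gja1, Gpc5, Mlc1 and Gfap. It could hold UMIs of at most 1 of 10 genes of other lineages: Itgam and Csf1r (myeloid), Flt1 and Mecom (endothelial), Col1a1 and Col3a1 (fibroblast), Snap25 and Snhg11 (neuron), Mobp and St18 (oligodendrocyte). The rule was met by 110 of 5326 nuclei: 11 of 906 in the HGF scaffold library, 55 of 2168 in the scaffold library and 44 of 2252 in the untreated library. Because the rule reads UMIs, the levels of these 16 genes in the astrocyte nuclei are a description of the choice and are used for nothing else.

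All 3 libraries came from the lesion epicenter of Sprague Dawley rats labelled wild type, 17 weeks old, 49 days after spinal cord injury. The HGF scaffold animals had carried a scaffold releasing hepatocyte growth factor (HGF) for 7 days, the scaffold animals had carried the scaffold without mention of HGF for 7 days, and the untreated animals are labelled as having no treatment. The untreated label names no implantation, so in any comparison with that library the operation and the implanted material cannot be told apart. There was 1 library per group and the number of animals behind each is not given, so no difference below has a replicate check, no test between groups exists, and every interval covers counting error only.

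Astrocytes are the glial cells that clear glutamate and potassium from around synapses, are joined to each other by connexin 43 channels (Gja1), and cover blood vessels with endfeet that carry the water channel aquaporin-4 (Aqp4). After spinal cord injury, astrocytes near the damage are known to become reactive. They raise the intermediate filament proteins GFAP and vimentin, and they form a border around the infiltrated, fibrotic core of the lesion. MET is the receptor through which HGF acts.

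The libraries held 1450757, 5791715 and 5953189 UMIs in the HGF scaffold, scaffold and untreated libraries, with medians of 1047, 1639 and 1407.5 UMIs per nucleus. The HGF scaffold library thus had the fewest nuclei and the lowest depth. The astrocyte nuclei held 10852, 56694 and 51127 UMIs in the same order, so that 1 UMI was worth 92.1, 17.6 and 19.6 CPM, the UMIs of a gene scaled to the same total in each library. Their median depth was 764, 865 and 902.5 UMIs, and the deepest held 3130, 3147 and 3233. They were thus shallower than the nuclei around them. Of the nuclei with at least 3 astrocyte markers, 13 of 24, 214 of 269 and 188 of 232 were left out for holding more than 1 other-lineage gene. Their median depth was 2717, 3372 and 3476 UMIs. Whether the other-lineage UMIs in them were stray RNA was not tested. At most 3.02% of the UMIs of any astrocyte nucleus were mitochondrial. The 3 pairs of libraries shared 4 cell barcodes, none of them of astrocyte nuclei.

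Many astrocyte nuclei met the rule narrowly. In the HGF scaffold library 5 of the 11 held exactly 3 of the 6 markers, against 32 of 55 in the scaffold library and 22 of 44 in the untreated library. These nuclei held medians of 7, 8 and 6.5 UMIs over the 6 markers in the HGF scaffold, scaffold and untreated libraries. Just outside the rule lay 12, 48 and 54 nuclei with 2 markers, with medians of 3, 2 and 3 marker UMIs. A further 4, 49 and 55 nuclei had at least 3 markers but 2 other-lineage genes, with medians of 17.5, 7 and 12 marker UMIs.

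Among the 6 markers of the rule, Gfap, the astrocyte intermediate filament protein, was found in nearly every astrocyte nucleus. It was detected in 11 of 11 HGF scaffold nuclei, 53 of 55 scaffold nuclei and 43 of 44 untreated nuclei, at 5529, 4762 and 4323 CPM. Its UMIs per nucleus ran up to 18, 24 and 23, with medians of 3, 3 and 3.5. Aqp4 stood at 2027, 1852 and 2504 CPM in the HGF scaffold, scaffold and untreated libraries. Mlc1, a membrane protein of astrocyte endfeet, stood at 1843, 1499 and 1447 CPM. Gja1 stood at 2672 CPM in the HGF scaffold library, where 13 of its 29 UMIs lay in 1 nucleus, and at 1147 and 958 CPM in the scaffold and untreated libraries. The other two were rare: Slc1a2, the main glutamate transporter of the forebrain, was detected in 1, 13 and 14 nuclei, and Gpc5, a glypican, in 4, 6 and 13. The astrocyte nuclei were therefore chosen mainly through Gfap, Aqp4, Mlc1 and Gja1.

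**Figure D1:**
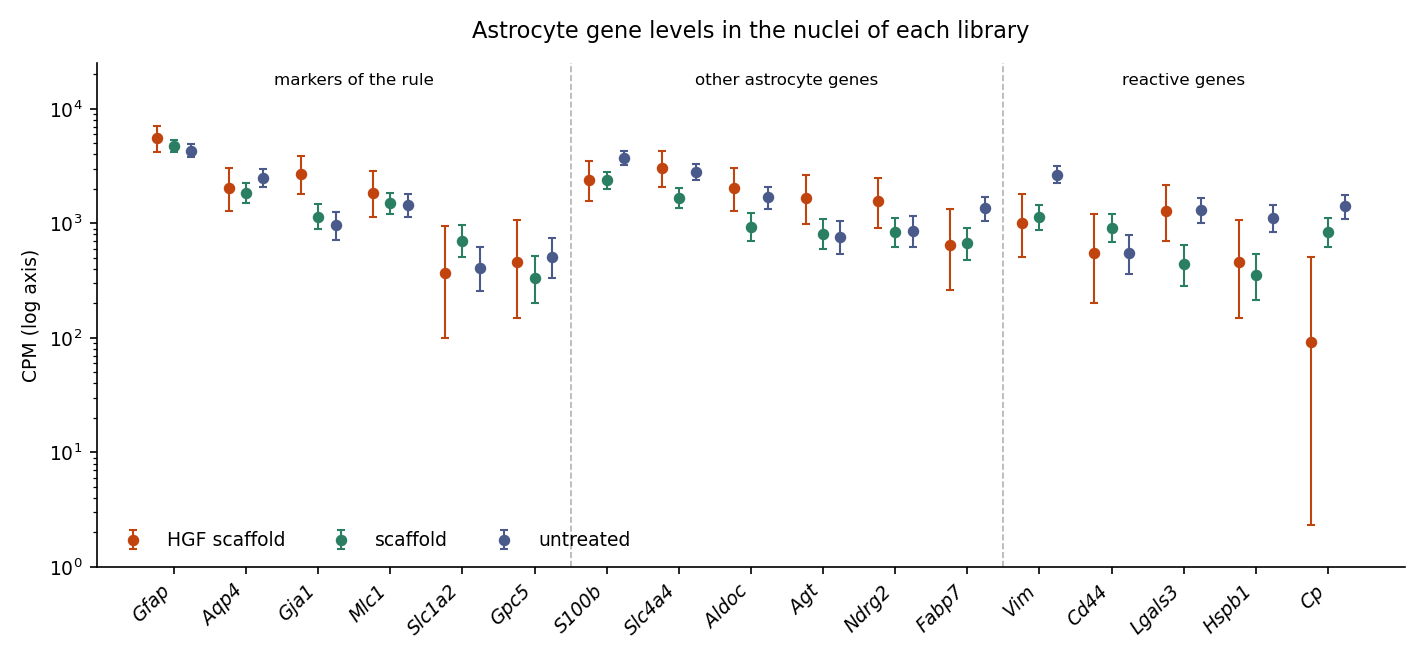
Levels in the summed astrocyte nuclei, in CPM on a log axis, of the 6 markers of the rule, 6 other astrocyte genes and 5 genes of reactive astrocytes. Points are the HGF scaffold, scaffold and untreated libraries, and bars are exact 95% Poisson intervals. The intervals of the HGF scaffold library, with 11 nuclei, are the widest. Among the reactive genes, Vim stands at 1014, 1129 and 2660 CPM and Lgals3 at 1290, 441 and 1310 CPM.

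The label was checked against astrocyte genes that the rule did not use. Of 30 such genes in the files, 22, 27 and 26 were detected in the astrocyte nuclei of the HGF scaffold, scaffold and untreated libraries. For 15, 19 and 19 of them the level was higher than in all other nuclei of the same library with a 95% interval above 1. Their summed level was 17140, 12206 and 15862 CPM in astrocyte nuclei, against 2784, 3040 and 3410 CPM in the other nuclei. At least 3 of the 30 genes were found in 11 of 11, 52 of 55 and 42 of 44 astrocyte nuclei. With each nucleus thinned to 500 UMIs, an astrocyte nucleus held on average 5.64, 4.62 and 4.68 of the 30 genes, against 0.968, 1.40 and 1.38 in the other nuclei. The nuclei thus carried the wider astrocyte programme as their label says.

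The genes that separated astrocyte nuclei most from the other nuclei in all 3 libraries were well-known astrocyte genes. Agt, which encodes angiotensinogen, was 239-fold higher in the HGF scaffold library (95% interval 105 to 579), 28.0-fold higher in the scaffold library (19.8 to 39.1) and 27.3-fold higher in the untreated library (18.7 to 38.9). Aldoc, the brain form of the glycolytic enzyme aldolase, was 83.4-, 17.8- and 28.9-fold higher in the 3 libraries. S100b, a calcium-binding protein of astrocytes, was 35.2-, 11.8- and 17.5-fold higher. Sox9, a transcription factor of the astrocyte lineage, was 265-, 25.3- and 15.1-fold higher, on 6, 16 and 15 UMIs. Further genes of this set were Gpr37l1, an astrocyte receptor, the fatty acid binding protein Fabp7, the metallothioneins Mt1, Mt2A and Mt3, the zinc transporter Slc39a12, the creatine kinase Ckb, the sodium pump subunit Atp1b2, the matrix proteins Bcan and Sparcl1, and the small heat shock protein Hspb1. Such ratios describe how the nuclei were chosen, since astrocyte genes go together.

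**Figure D2:**
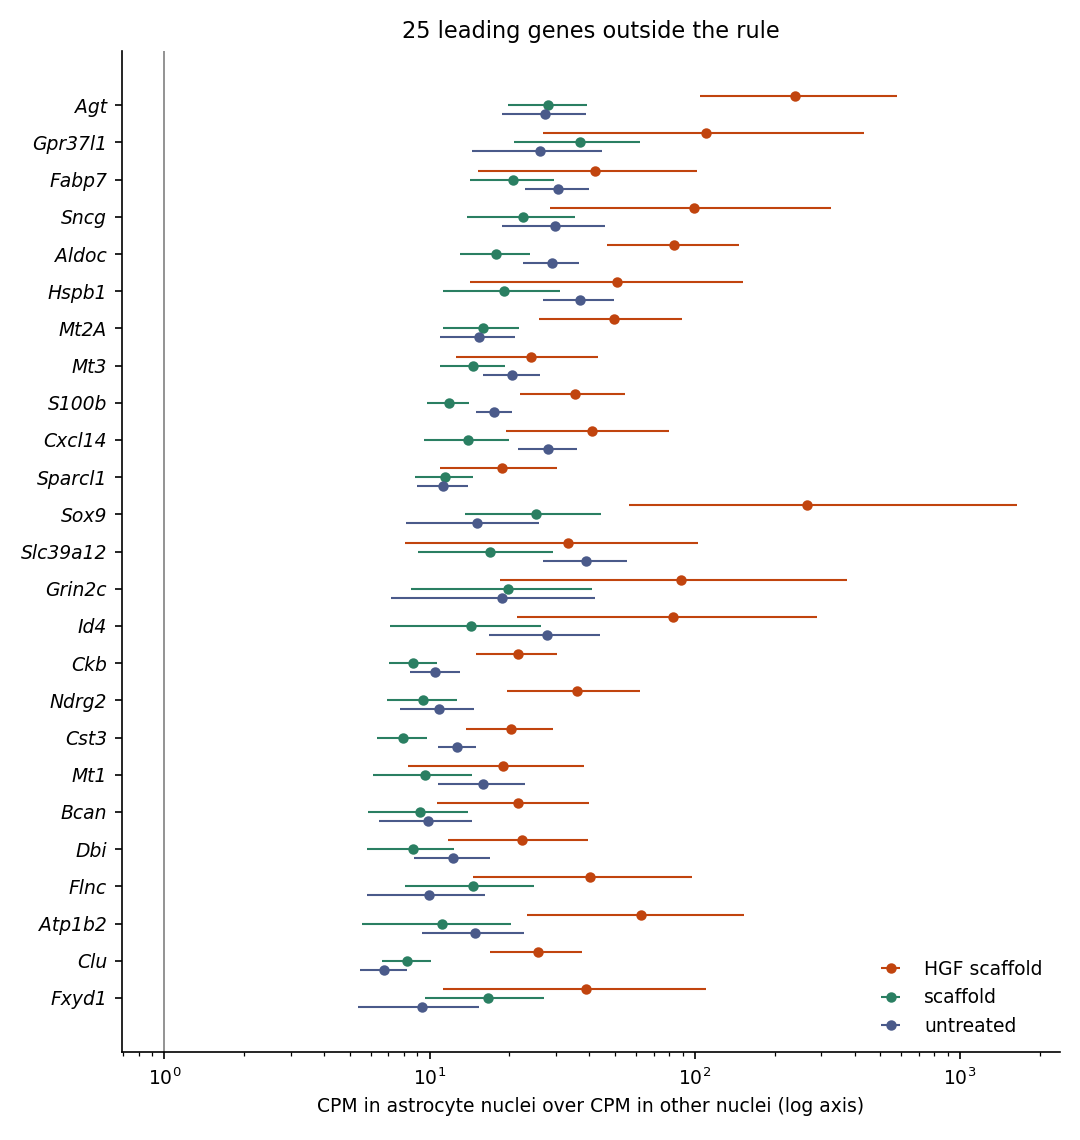
Level in astrocyte nuclei over the level in all other nuclei of the same library, on a log axis, for the 25 genes outside the rule that separated astrocyte nuclei most in all 3 libraries. Points are the HGF scaffold, scaffold and untreated libraries and bars are exact 95% intervals. Agt stands at 239, 28.0 and 27.3, and every interval drawn lies above 1.

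Some common astrocyte markers did not set these nuclei apart. Slc1a3, a glutamate transporter also made by microglia and other glia, stood at 0.370, 1.01 and 1.32 times its level in other nuclei in the HGF scaffold, scaffold and untreated libraries, and the 3 intervals include 1. Glul, glutamine synthetase, stood at 1.47, 1.19 and 1.37 times, again with intervals that include 1. Fgfr3, Slc7a10 and Paqr6 had 0 UMIs in all astrocyte nuclei. Kcnj10, the inward-rectifier potassium channel of astrocytes, had 0, 4 and 0 UMIs. With nuclei thinned to 500 UMIs, Gpc5 was found in 18.2%, 9.09% and 15.9% of astrocyte nuclei, against 3.69%, 6.86% and 5.62% of other nuclei.

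Shares of nuclei with a UMI were set beside nuclei holding both Itgam and Csf1r, a myeloid class that should lack astrocyte genes, with medians of 1854, 3549 and 4629 UMIs in the HGF scaffold, scaffold and untreated libraries. In thinned nuclei Gfap was found in 90.9%, 83.6% and 86.4% of astrocyte nuclei in the HGF scaffold, scaffold and untreated libraries. In the thinned myeloid class it was found in 8 of 138, 58 of 505 and 6 of 91 nuclei, and in the other nuclei in at most 16.4%. Unthinned, the Gfap share of the deeper myeloid class was 13.0%, 40.4% and 36.3%. S100b was found in 81.8%, 54.5% and 65.9% of astrocyte nuclei, against 3.35%, 11.6% and 10.6% of other nuclei (unthinned, 90.9%, 76.4% and 77.3% of astrocyte nuclei). Aldoc was found in 63.6%, 43.6% and 45.5%, against 1.12%, 3.55% and 3.80%. S100b and Aldoc, which the rule did not use, thus stood above the share in other nuclei in every library. Mbp, a myelin protein of oligodendrocytes, was found in 72.7%, 41.8% and 50.0% of astrocyte nuclei and in 29.9%, 37.4% and 44.7% of other nuclei.

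**Figure D3:**
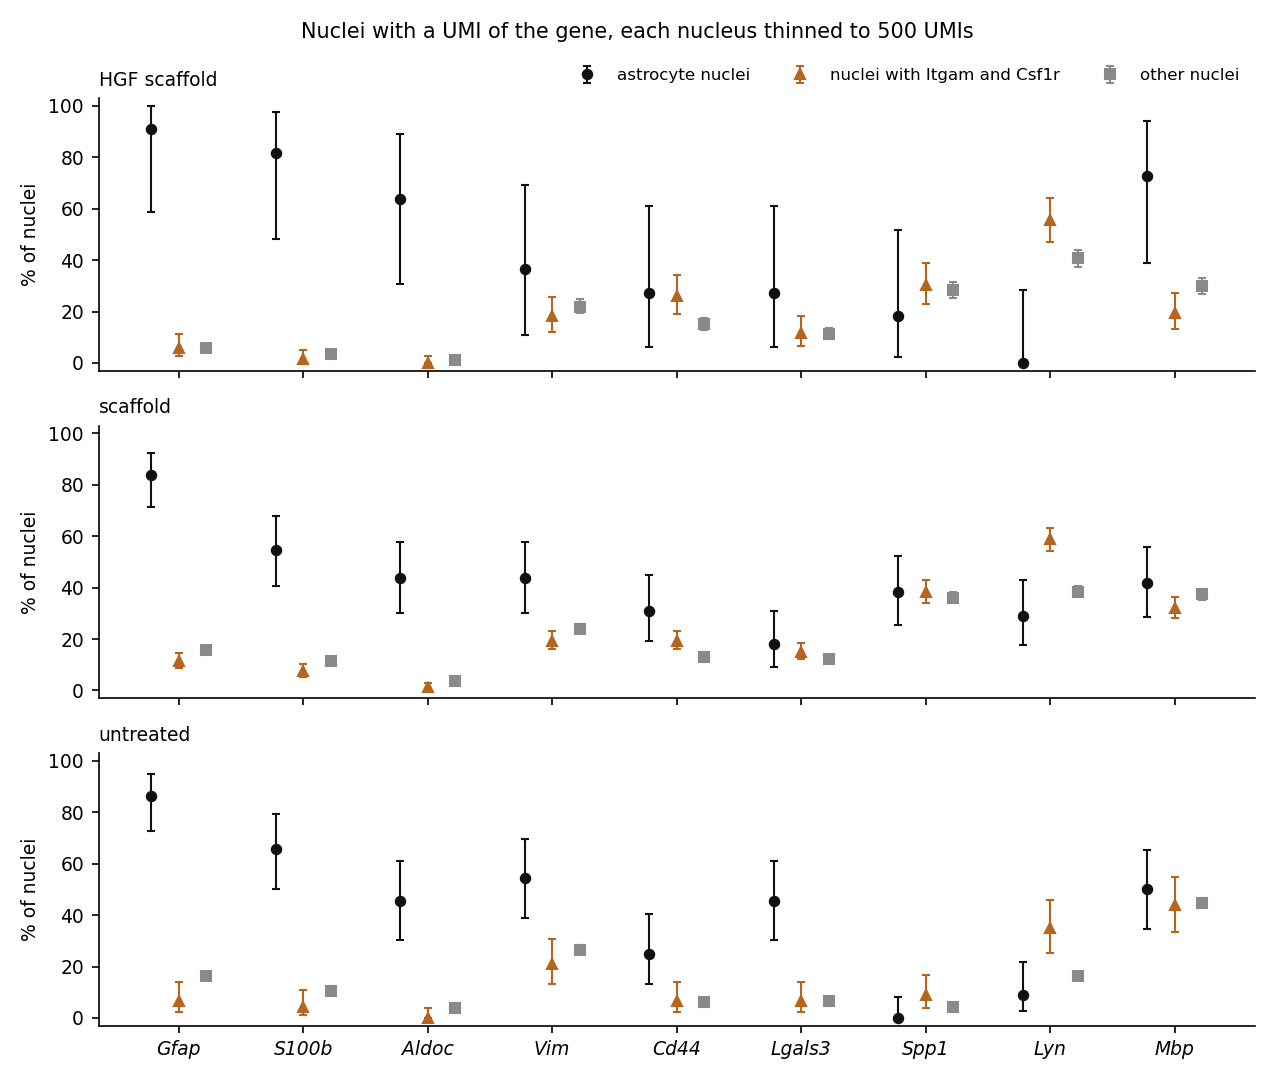
Percent of nuclei with a UMI of each gene after thinning each nucleus to 500 UMIs, in panels for the HGF scaffold, scaffold and untreated libraries. Points are astrocyte nuclei, nuclei with Itgam and Csf1r, and all other nuclei, with exact 95% binomial intervals. S100b and Aldoc stand higher in astrocyte nuclei in every panel, as does Gfap, which the rule used. Spp1 stands at 18.2%, 38.2% and 0% of astrocyte nuclei against 28.3%, 36.1% and 4.26% of other nuclei.

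RNA of other lineages was present in the astrocyte nuclei and differed between libraries. A list of 13 myeloid genes summed to 1567, 3845 and 802 CPM in the HGF scaffold, scaffold and untreated astrocyte nuclei, against 6794, 5462 and 1407 CPM in the other nuclei. It was detected at 7, 12 and 9 of its 13 genes. Of the microglial genes, P2ry12 was at 0 in all 3 libraries, Cx3cr1 and Tyrobp were at 0 in the HGF scaffold and untreated libraries, and Csf1r, a gene of the rule, was at 0 in those as well. At least 3 myeloid genes were found in 2 of 11, 22 of 55 and 3 of 44 astrocyte nuclei. In the scaffold library these 22 nuclei held 1704 CPM of Lyn, a kinase of myeloid cells, against 264 CPM in the other 33. As a description, their levels of the rule's markers were 3636 CPM of Gfap, against 5744 CPM in the other 33, and 1250 CPM of Aqp4, against 2377 CPM.

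A list of 11 oligodendrocyte genes summed to 5345, 2963 and 3638 CPM in the HGF scaffold, scaffold and untreated astrocyte nuclei, against 2443, 3009 and 4055 CPM in other nuclei. At least 3 of these genes were found in 7 of 11, 14 of 55 and 14 of 44 astrocyte nuclei. Most of the HGF scaffold astrocyte nuclei thus held oligodendrocyte RNA, which limits the comparisons with that library. A list of 11 neuron genes summed to 461, 1587 and 3579 CPM, against 2047, 3138 and 3778 CPM in other nuclei. Of these genes Rbfox3, Gad2, Slc17a6 and Slc32a1 were at 0 in the astrocyte nuclei of all 3 libraries. The 11 fibroblast genes summed to 1843, 1305 and 1839 CPM, against 4357, 2861 and 5727 CPM in other nuclei, and the 10 endothelial genes to 184, 406 and 509 CPM, against 1494, 1168 and 1719 CPM. The 8 genes of oligodendrocyte precursors summed to 1290, 1341 and 1545 CPM, against 1142, 1247 and 1855 CPM in other nuclei. The 10 Schwann cell genes summed to 553, 494 and 1232 CPM, above the 257, 351 and 622 CPM in other nuclei. Small sums were also those of ependymal genes (276, 88.2 and 117 CPM over 6 genes, with Ccdc153 and Rsph1 at 0), T cell genes (92.1, 52.9 and 176 CPM over 7 genes) and mural cell genes (276, 370 and 215 CPM over 8 genes). The fibroblast, endothelial, myeloid, neuron and oligodendrocyte lists each include genes that the rule limits. Their sums in astrocyte nuclei therefore depend in part on the choice of nuclei. Among the 3 libraries the myeloid sum was highest in the scaffold library.

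Astrocyte nuclei made up 1.21% of the HGF scaffold library (exact 95% binomial interval 0.608 to 2.16), 2.54% of the scaffold library (1.92 to 3.29) and 1.95% of the untreated library (1.42 to 2.61). The share in the HGF scaffold library was 0.479 times that in the scaffold library (0.226 to 0.924) and 0.621 times that in the untreated library (0.289 to 1.22). The share in the scaffold library was 1.30 times that in the untreated library (0.858 to 1.98), and 0.836 times without nuclei holding at least 3 myeloid genes. With every nucleus thinned to 500 UMIs, 9, 59 and 52 nuclei met the rule, or 0.993%, 2.72% and 2.31%. Of these, 8, 39 and 29 had also met it unthinned. The rule leaves out nuclei with more than 1 other-lineage gene, which were deeper at the median, so these are shares of nuclei that meet the rule and not of all astrocytes.

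Scaffold astrocyte nuclei were compared with untreated ones gene by gene. A gene was read when at least 10 UMIs would be expected in each library at equal CPM, which 1146 genes passed, and called when its CPM differed at least 2-fold. Of these genes, 93 (8.12%) were called higher and 89 (7.77%) lower in the scaffold library, and the median log2 ratio of all genes read was -0.00. In 7 of the 93 and 14 of the 89, over 50% of the UMIs came from a single nucleus. Without the nucleus richest in the gene in each library, 88 and 60 of them still differed at least 2-fold. In the nuclei that were not astrocytes, 66 of the 93 and 79 of the 89 differed in the same direction. These counts were not set beside the share over all 1146 genes read, so they show nothing particular to the called genes.

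The scaffold nuclei held lower levels of 3 genes known from reactive astrocytes. Vim, which encodes vimentin, had 64 UMIs in 29 of 55 scaffold nuclei and 136 UMIs in 30 of 44 untreated nuclei. It stood at 1129 CPM against 2660 CPM, a ratio of 0.424 (95% interval 0.310 to 0.575), while in the HGF scaffold library it stood at 1014 CPM on 11 UMIs. In the untreated library 1 nucleus held 31 of its UMIs, and without the richest nucleus of each library its log2 ratio was -1.01 instead of -1.24. In other nuclei the ratio was 0.840. In thinned nuclei Vim was found in 43.6% of scaffold and 54.5% of untreated astrocyte nuclei, with intervals that overlap (30.3 to 57.7 and 38.8 to 69.6), and in 36.4% in the HGF scaffold library.

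Hspb1, the small heat shock protein, had 20 UMIs in 11 scaffold nuclei and 57 UMIs in 18 untreated nuclei. It stood at 353 CPM against 1115 CPM, a ratio of 0.316 (0.180 to 0.535), and at 461 CPM in the HGF scaffold library. The ratio in other nuclei was 0.609. Lgals3, which encodes the carbohydrate-binding protein galectin-3 made by phagocytes and some reactive astrocytes, had 25 UMIs in 16 scaffold nuclei and 67 UMIs in 24 untreated nuclei. It stood at 441 CPM against 1310 CPM, a ratio of 0.336 (0.204 to 0.540), whereas in other nuclei it was 2.20 times higher in the scaffold library. Lgals3 thus differed in opposite directions in astrocyte nuclei and in the rest. In the HGF scaffold library Lgals3 stood at 1290 CPM on 14 UMIs. In thinned nuclei it was found in 27.3%, 18.2% and 45.5% of astrocyte nuclei in the HGF scaffold, scaffold and untreated libraries, against 11.6%, 15.0% and 6.59% of nuclei with Itgam and Csf1r.

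Over the whole reactive list, 6 of 32 genes were read, 1 above and 5 below the median of all genes read. Their median log2 ratio relative to that of all genes read was -0.98, and it was -0.80 without the richest nucleus of each library. Of the remaining 3 genes, Cd44, a hyaluronan receptor also high in myeloid cells, had 52 UMIs in the scaffold library against 28 in the untreated library, a ratio of 1.67 (1.04 to 2.75), beside 3.42 in other nuclei. Cp, the copper-carrying ferroxidase ceruloplasmin, had 48 against 72 UMIs, a ratio of 0.601 (0.408 to 0.878), and 1 UMI in the HGF scaffold library. S100a10 had 12 against 11 UMIs. Many genes used to grade reactive astrocytes were too rare to read. Serpina3n had 0 UMIs in all 3 libraries, Lcn2 had 1, 0 and 2 in the HGF scaffold, scaffold and untreated libraries, Timp1 had 1, 5 and 10, C3 had 3, 6 and 1, and Nes had 1, 0 and 4.

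A looser choice of nuclei was tried after seeing the data. It set no limit on other-lineage genes but asked for at least 2 astrocyte-marker UMIs for each other-lineage UMI, and gave 15, 117 and 107 nuclei in the HGF scaffold, scaffold and untreated libraries. Vim had 123 UMIs in the scaffold and 380 in the untreated library there, a ratio of 0.406 (0.328 to 0.498). Hspb1 stood at 0.481 (0.33 to 0.689) and Lgals3 at 0.557 (0.412 to 0.746). Vim and Hspb1 thus stayed more than 2-fold lower in the scaffold library under the looser choice, and Lgals3 was less than 2-fold lower.

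Genes of myeloid cells differed the other way. Spp1, which encodes the secreted phosphoprotein osteopontin, had 54 UMIs in 32 of 55 scaffold nuclei and 6 UMIs in 5 of 44 untreated nuclei, with 2 UMIs in the HGF scaffold library. The ratio of scaffold to untreated was 8.12 (3.50 to 23.1), beside 7.00 in other nuclei. In thinned nuclei of the scaffold library Spp1 was found in 38.2% of astrocyte nuclei, 38.4% of nuclei with Itgam and Csf1r and 36.1% of other nuclei. Lyn had 53 against 10 UMIs, a ratio of 4.78 (2.41 to 10.5). Ptprc, the leukocyte phosphatase CD45, had 35 against 7, a ratio of 4.51 (1.97 to 12). Lyz2, a lysozyme of phagocytes, had 24 against 2, a ratio of 10.8 (2.69 to 94.5). Fyb, an adaptor of leukocytes, Aoah, a lipase of phagocytes that detoxifies endotoxin, and Slfn3, a member of the schlafen family, had ratios of 7.82, 7.52 and 14.4. Each of these 7 genes was also at least 3.45 times higher in the other nuclei of the scaffold library. The myeloid list summed to 3845 CPM in the scaffold against 802 CPM in the untreated astrocyte nuclei, as given above, and its part in these ratios was not tested.

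Several other genes among the 12 with the strongest ratios in each direction had most of their UMIs in 1 nucleus. Of 59 Cxcl2 UMIs, a chemokine, 52 lay in 1 scaffold nucleus that also held 6 of the 13 myeloid genes, against 0 UMIs in the untreated library. Another scaffold nucleus held 53 of 81 Prkg1 and 33 of 36 Adamtsl3 UMIs, and yet another held 22 of 37 Tgfbi UMIs, though without the richest nuclei Tgfbi still stood at 2.76 in log2. In the untreated library a nucleus of 3042 UMIs, with 3 rule markers, 2 Gfap UMIs and 3 neuron markers, held 100 of 116 Kcnip4, 94 of 161 Meg3, 42 of 51 Nrg1, 26 of 37 Rbfox1, 21 of 24 Plcxd3 and 18 of 20 Cdh8 UMIs, and 88 Lrrtm4 UMIs. The neuron list sum of 3579 CPM in the untreated astrocyte nuclei rests in part on this nucleus. Of the 12 genes named as higher, 4 had over 50% of their UMIs in 1 nucleus, and of the 12 named as lower, 7 did.

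**Figure D4:**
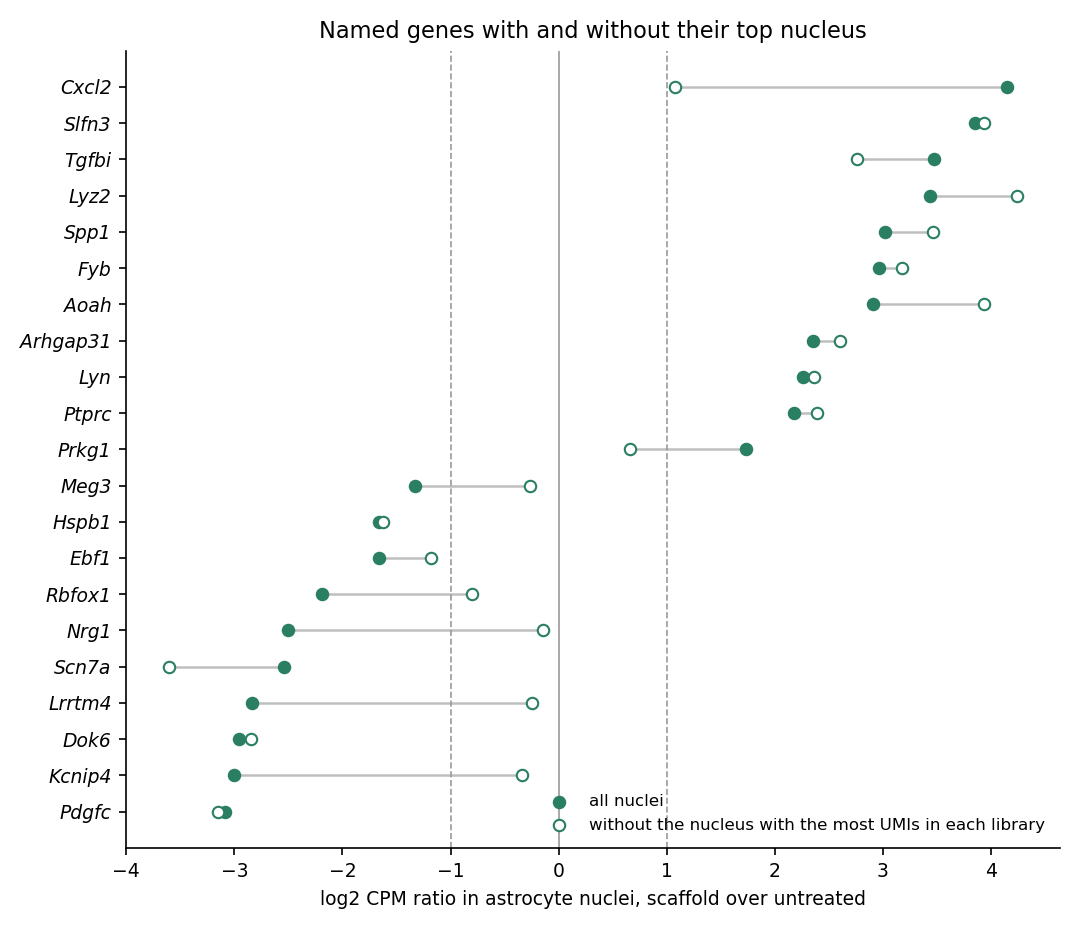
Log2 ratio of scaffold over untreated astrocyte nuclei for 21 of the 24 genes named in the text by the strength of their ratio, with all nuclei (filled) and without the nucleus richest in that gene in each library (open). Adamtsl3, Plcxd3 and Cdh8 are not drawn because at most 3 UMIs were left in both libraries, and the Cxcl2 point is a bound. Without the richest nuclei Kcnip4 and Lrrtm4 stand at -0.34 and -0.25, and Spp1, Lyn and Ptprc at 3.47, 2.37 and 2.39.

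Spread over more nuclei were Arhgap31, Hspb1 and a few others. Arhgap31, which encodes a regulator of small GTPases, had 34 UMIs in 18 scaffold nuclei and 6 UMIs in 4 untreated nuclei, a ratio of 5.11 (2.12 to 14.9). In other nuclei its ratio was 0.862, so the difference was seen among astrocyte nuclei and not among the rest, though the difference between these ratios was not tested. Under the looser choice of nuclei it was 1.19 (0.810 to 1.74), and in thinned nuclei its log2 ratio was 0.0588. Pdgfc, a growth factor, had 3 against 23 UMIs, a ratio of 0.118 (0.0226 to 0.389), and Dok6 had 3 against 21, a ratio of 0.129. Scn7a, a sodium channel gene also used here as a Schwann cell marker, had 4 against 21, with 10 of the 21 in 1 nucleus. Its log2 ratio was -0.84 under the looser choice. Ebf1, a transcription factor of stromal and vascular cells, had 28 against 80 UMIs, a ratio of 0.316 (0.198 to 0.491), with 39 of the 80 in 1 nucleus, and its log2 ratio was -0.62 in thinned nuclei and -0.58 under the looser choice.

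Genes of astrocyte identity and transport had medians below that of all genes in the scaffold library, which moved toward 0 without the nucleus richest in each gene. Of the astrocyte genes outside the rule, 15 were read, 5 above and 10 below the median of all genes, and 1 was called (Slc39a12, lower). Their median was -0.37 in log2 relative to all genes read, and -0.085 without the richest nuclei. S100b had 135 against 192 UMIs, at 2381 CPM in the scaffold and 3755 CPM in the untreated library, a ratio of 0.634 (0.505 to 0.794). Aldoc had 53 against 86 UMIs, a ratio of 0.556 (0.387 to 0.792). Of the genes of ion, water and transmitter transport, 10 were read with a median of -0.63, and 1 was called higher and 3 lower. Among all genes read in this comparison 8.12% were called higher and 7.77% lower, the background for the calls in every list. Slc39a12 had 15 against 42 UMIs, a ratio of 0.322 (0.166 to 0.593). Atp1b2 had 12 against 25 and the chloride cotransporter Slc12a2 had 14 against 29. Itpr2, the calcium release channel of the astrocyte endoplasmic reticulum, was higher, with 30 UMIs in 23 scaffold nuclei and 11 UMIs in 7 untreated nuclei, a ratio of 2.46 (1.2 to 5.44). The transport median was -0.13 without the richest nuclei and 0.0473 under the looser choice. Of 144 untreated UMIs of Slc4a4, the sodium bicarbonate cotransporter, 71 lay in 1 nucleus.

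Adhesion genes of synapses were split. Of the 14 read, 4 were above and 10 below the median of all genes, with a median of -0.46. Nrcam, a cell adhesion molecule, had 49 UMIs in 21 scaffold nuclei and 19 UMIs in 13 untreated nuclei, a ratio of 2.33 (1.34 to 4.18), and was the only member called. Ncam1 had 68 against 110, a ratio of 0.557 (0.406 to 0.761). Nrcam stood at 1.07 (0.793 to 1.45) under the looser choice.

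Genes of scar matrix showed no common direction. Of 13 read, 6 were above and 7 below, with a median of -0.00. Spp1 was called higher, as above, and Itgb8, an integrin subunit that activates TGF-beta, was called lower with 6 against 21 UMIs, a ratio of 0.258 (0.0851 to 0.660). The chondroitin sulfate proteoglycan Bcan had 25 against 28 UMIs, the receptor phosphatase Ptprz1 had 32 against 29, and fibronectin (Fn1) had 34 against 35. Transcription factors likewise showed no common direction, with 5 of 12 above, 7 below and a median of -0.11. Sox9 had 16 against 15 UMIs, Nfia 94 against 82 and Zbtb20 154 against 157. Rorb was called higher (19 against 8), with an interval that included 1 (0.895 to 5.66). Id4 was called lower (12 against 23, interval 0.213 to 0.985).

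Among lipid genes, 9 were read with a median of -0.18. Apoe, the lipid carrier secreted by astrocytes, stood at 6543, 5556 and 3951 CPM in the HGF scaffold, scaffold and untreated libraries. Its scaffold to untreated ratio was 1.41 (1.17 to 1.69), beside 2.28 in other nuclei. Fabp7 was called lower, with 38 against 69 UMIs and a ratio of 0.497 (0.325 to 0.748). Of 7 glycolysis genes read, the median was -0.49, Pfkfb3 was called higher (17 against 7 UMIs) and Ldhb lower (11 against 21). Both intervals included 1 (0.863 to 6.25 for Pfkfb3 and 0.206 to 1.02 for Ldhb). Of 10 genes of metal binding and oxidative stress read, the median was -0.14, with the detoxifying enzyme Nqo1 higher (18 against 7) and 1 lower. The interval of Nqo1 included 1 (0.924 to 6.57). Of 7 mitochondrial genes read, none lay above the median of all genes, at a median of -0.30.

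Receptor genes had 11 read, with a median of -0.19 and Grm3, a metabotropic glutamate receptor, called lower (11 against 26 UMIs, a ratio of 0.382, interval 0.170 to 0.799). Among 5 growth factor genes read, with a median of -0.39, Bmp6 was called higher with 39 against 17 UMIs and Nrg1 lower. Of the Bmp6 UMIs, 17 of the 39 lay in 1 scaffold nucleus, and its ratio was 0.394 under the looser choice. The 6 filament genes read had 1 above and 5 below the median of all genes, as in the reactive list, which also holds Vim and S100a10. Their median was -0.29, with Vim and Plec, a linker of filaments, called lower. The interval of Plec included 1 (0.215 to 1.09). The 5 immune genes had a median of 0.38, the 7 genes of protoplasmic astrocytes 0.11 and the 5 genes of fibrous astrocytes 0.74, which turned to -0.18 without the richest nuclei. Fewer than 5 genes were read for vessel endfeet and junctions (3) and for the immediate-early and heat shock response (4), and none for the Hox genes or the cell cycle. Among the cell cycle genes Mki67 had 0, 1 and 1 UMIs and Top2a had 0 in the HGF scaffold, scaffold and untreated libraries.

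**Figure D5:**
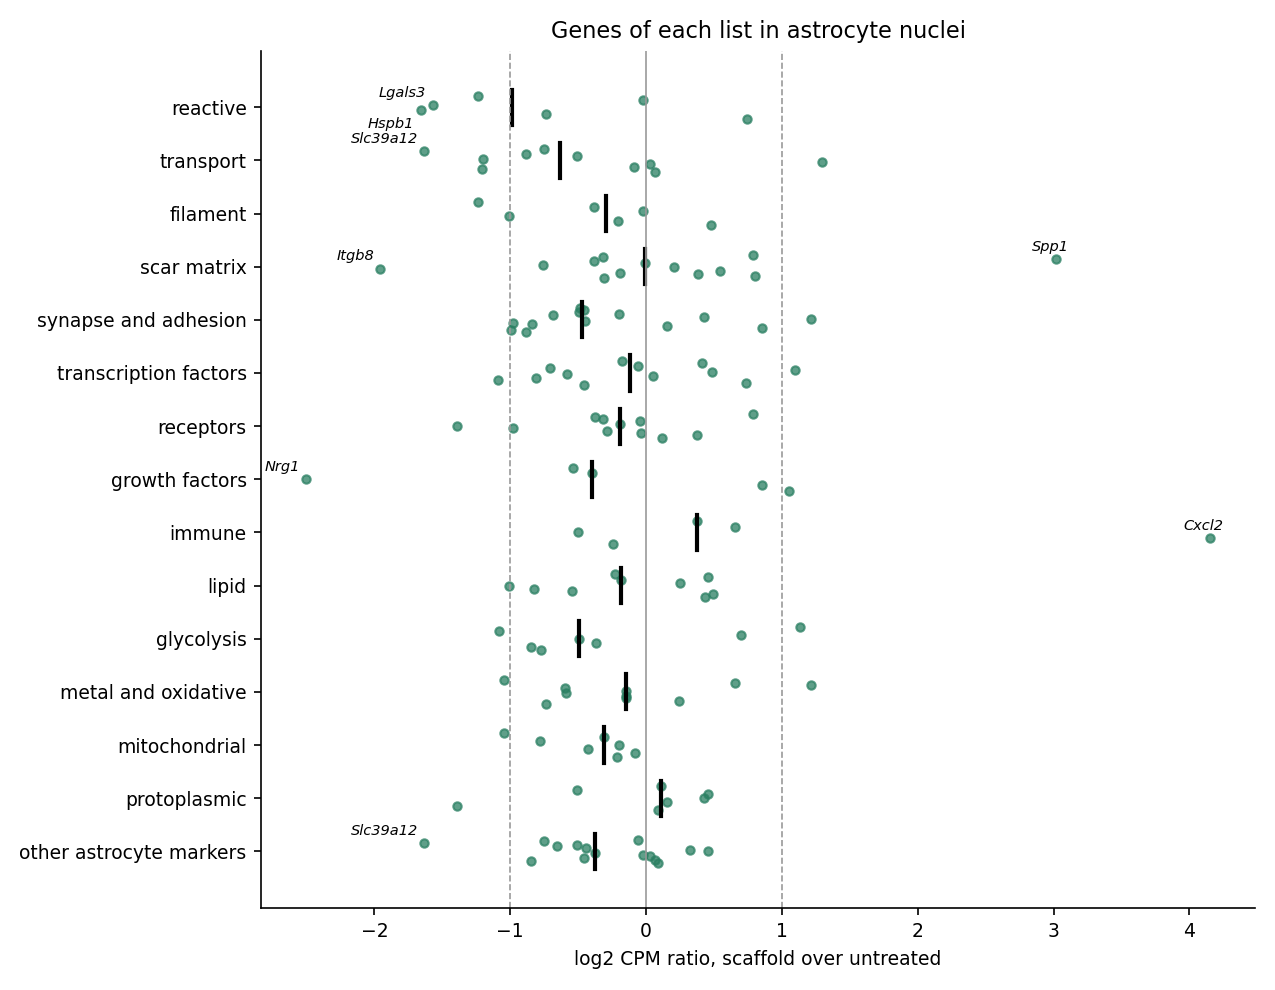
Log2 ratio of scaffold over untreated astrocyte nuclei for every gene read in 15 gene lists. Each point is a gene, black bars are list medians and dashed lines mark 2-fold. The reactive and filament lists, which share Vim and S100a10, each have 5 of 6 genes below the median of all genes read. The mitochondrial list has 0 of 7 above, and the other lists spread to both sides.

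HGF scaffold astrocyte nuclei were compared with scaffold ones, the comparison in which the growth factor is what the labels set apart. With 11 nuclei in the HGF scaffold library, 63 genes were read. Of these, 4 (6.35%) were called higher and 17 (27%) lower, and the median log2 ratio of all genes read was -0.13. With the ratios centred on that median, 7 were higher and 15 lower. With nuclei thinned to 500 UMIs, 12 genes were read, 2 of them higher and 2 lower. Leaving out the nucleus richest in a gene takes 1 of 11 nuclei from the HGF scaffold library and 1 of 55 from the scaffold library. That lowers the ratios as a whole (median log2 ratio -0.91, with 0 genes higher and 25 lower), so it is no check of direction in this comparison.

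The 4 higher genes were Abca1, Tf, Aldoc and Agt. Abca1, the cholesterol exporter that loads lipid onto Apoe, had 24 UMIs in 8 of 11 HGF scaffold nuclei, 10 of them in 1 nucleus, and 42 UMIs in 27 of 55 scaffold nuclei. It stood at 2212 CPM against 741 CPM, a ratio of 2.99 (1.73 to 5.04), beside 1.04 in other nuclei. Tf, transferrin, an oligodendrocyte gene in the cord, had 22 against 52 UMIs, a ratio of 2.21 (1.28 to 3.70), and the oligodendrocyte list summed to 5345 CPM in the HGF scaffold against 2963 CPM in the scaffold astrocyte nuclei. The part of that RNA in the Tf ratio was not tested. Aldoc had 22 UMIs in 8 HGF scaffold nuclei against 53 in 31 scaffold nuclei, a ratio of 2.17 (1.26 to 3.63), but with at least 4 markers required its log2 ratio turned to -0.25. Agt had 18 UMIs in 7 against 46 in 30, a ratio of 2.04 (1.12 to 3.59). Both were lower in the HGF scaffold library in other nuclei, at 0.462 and 0.24 times. Under the looser choice the intervals of Tf, Aldoc and Agt included 1, and Abca1 stood at 1.82 (1.17 to 2.74).

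Of 6 other astrocyte genes read, 5 were above the median of all genes, and 2 were called higher and 1 lower. Among all genes read, 6.35% were called higher and 27% lower. The median of the 6 was 0.999 in log2 relative to all genes read, against 0.20 under the looser choice. The member called lower was Pla2g7, a phospholipase, with 6 against 67 UMIs, a ratio of 0.468 (0.166 to 1.07).

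The genes that were lower in the HGF scaffold nuclei had few UMIs there. Erbb4, a receptor for neuregulins, had 3 against 68 UMIs, a ratio of 0.230 (0.0464 to 0.703). Adarb2, which encodes an RNA-editing enzyme relative, had 0 UMIs against 76 in 29 scaffold nuclei, at least 4.85-fold lower when 0 is set at the floor of 3 counts per library. Robo2, an axon guidance receptor, had 2 against 66 UMIs and Igsf11, a cell adhesion molecule, 3 against 63. The 6 synapse adhesion genes read had 1 above and 5 below the median of all genes, with 2 called lower and a median of -0.57, a share of lower calls close to the 27% of all genes read. Nlgn1, a synaptic adhesion protein, was called lower with 4 against 61 UMIs, a ratio of 0.343 (0.0905 to 0.923). The 5 protoplasmic genes read had a median of -0.53. Ncam2 had 1 against 71 UMIs and Meg3 2 against 71, but under the looser choice they stood at 1.19 and 2.89 times, so their direction depended on which nuclei were taken. Of the 81 Prkg1 UMIs in the scaffold library, against 0 in the HGF scaffold library, 53 lay in 1 nucleus. In other nuclei 15 of the 17 genes were lower in the HGF scaffold library as well. Many genes read but not called were also lower there, such as S100b (0.338 times) and Clu (0.556 times). The count is therefore not particular to the 17.

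HGF scaffold and untreated astrocyte nuclei share their libraries with the comparisons above and give no independent evidence. Of 84 genes read, 0 (0%) were called higher and 30 (35.7%) lower, with a median log2 ratio of -0.62. Centred on that median, 17 were higher and 18 lower, a balance that the centring itself brings about. With nuclei thinned to 500 UMIs, 15 genes were read, 3 of them higher and 2 lower. Of the 30, 28 differed in the same direction in other nuclei. Many genes read but not called were also lower there, such as S100b (0.318 times) and Zbtb20 (0.531 times). That count is therefore not particular to the 30. Kcnip4 and Lrrtm4, at 0 in the HGF scaffold library, rested on the single untreated nucleus described above. Il1rapl1, a synapse organiser, had 1 against 75 UMIs, a ratio of 0.0628 (0.00157 to 0.361), but its log2 ratio was -1.05 under the looser choice and -0.62 with up to 2 other-lineage genes allowed. Ctnna2 and Ppp2r2b had 0 UMIs in the HGF scaffold library, against 72 and 66. Ctnna2 turned direction, to 0.68 in log2 under the looser choice and 1.10 with up to 2 other-lineage genes allowed.

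Vim had 11 UMIs in the HGF scaffold library against 136 in the untreated library, a ratio of 0.381 (0.186 to 0.704), beside 0.924 in other nuclei and 0.293 (0.155 to 0.508) under the looser choice. Vim thus stood lower than in untreated nuclei in both implant libraries, though both ratios use the same untreated library. In the HGF scaffold library 6 of its 11 UMIs lay in 1 nucleus. Relative to the median of all genes read, its log2 ratio of HGF scaffold over untreated was -0.77. Cp had 1 UMI against 72, a ratio of 0.0654 (0.00163 to 0.376), but 0.854 (0.510 to 1.35) under the looser choice. Hspb1 had 5 against 57, a ratio of 0.413 (0.129 to 1.02). Apoe had 71 against 202, a ratio of 1.66 (1.25 to 2.18), but 0.982 (0.781 to 1.22) under the looser choice. The 5 other astrocyte genes read had a median of 0.89 relative to all genes read, the 5 genes of metal binding and oxidative stress 0.71 (-0.0194 under the looser choice) and the 6 synapse adhesion genes -0.54.

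The ligand and receptor of the tested factor were hardly detected in astrocyte nuclei. Hgf had 1, 1 and 0 UMIs and Met 1, 4 and 0 UMIs in the HGF scaffold, scaffold and untreated libraries. The floor of 3 counts, at which a library with 0 UMIs was set, equals 58.7 CPM in the untreated astrocyte nuclei. Differences in either gene were therefore not detectable at this depth.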

How the data were processed

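Nuclei of 3 libraries were analysed, 1 per group, with groups taken from each sample's treatment label. Isolation used a kit for neuronal tissue and capture used 10x 3′ chemistry, per the labels' protocols. The deposited matrices hold raw UMI counts of 17328 genes per nucleus. The submitters' processing notes name Cell Ranger 6.0.1. The genome build is not given in the sources used here. Every barcode held at least 500 UMIs. No doublet caller was used. The limit on other-lineage genes leaves out only some nuclei of mixed content. At least 3 myeloid genes were still found in 2, 22 and 3 astrocyte nuclei of the HGF scaffold, scaffold and untreated libraries.

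UMIs were summed over the astrocyte nuclei of each library and scaled to CPM. Intervals are exact, at 95% and for counting error only: conditional Clopper-Pearson for ratios, Poisson for levels, binomial for shares. UMIs of 1 nucleus are not independent, so the true error is wider. A library at 0 was set at 3 counts. The 16 genes of the rule were left out of the counts of genes. List medians are given relative to the median of all genes read, for lists with at least 5 genes read. Thinning drew 500 UMIs per nucleus without replacement. Named genes were the 25 with the highest lowest interval bound against other nuclei, the 12 per direction with the interval farthest from 1 in each comparison, and list members called or leading their list. The nuclei, lists and tests were chosen with earlier results of these data known. Results were recomputed under 16 other settings, 4 of them chosen after seeing the data. A few genes that meet the naming rule are not reported here. The calculation was tested on simulated data. Python 3.11.15, numpy 2.4.6, scipy 1.17.1, pandas 2.3.3 and matplotlib 3.10.9 were used.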

Additional observations from a re-analysis of the deposited data

How the results depend on the processing

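No paired analysis was possible because each group has 1 library and no replicate number is shared between animals. For the same reason no library could be left out. Depth and the number of nuclei limited what could be read: in the HGF scaffold library 1 UMI of the astrocyte nuclei was worth 92.1 CPM. In the main choice 21, 182 and 30 genes differed at least 2-fold either way for HGF scaffold over scaffold, scaffold over untreated and HGF scaffold over untreated. In the same order these counts were 60, 414 and 86 with at least 2 markers, 7, 75 and 18 with at least 4, 12, 98 and 18 without Gfap among the markers, and 2, 25 and 3 with no other-lineage gene allowed. They were 4, 63 and 5 with nuclei thinned to 500 UMIs, 2, 49 and 7 with at least 20 UMIs expected, 91, 627 and 101 with at least 5, and 2017, 2346 and 2081 with no minimum. With the settings chosen after seeing the data they were 42, 406 and 46 with up to 2 other-lineage genes, 42, 408 and 48 under the looser choice of nuclei, and 7, 86 and 11 without nuclei holding at least 3 myeloid genes. The minimum and the number of nuclei set how many genes are read. Equal weight for each nucleus, centring on the median and leaving out the richest nucleus kept them within 1.5 times. A filter on genes per nucleus and mitochondrial UMIs, and leaving out the deepest nuclei of each library, took away no astrocyte nucleus. The balance of higher and lower genes also depended on the setting. For HGF scaffold over scaffold it was 4 higher to 17 lower in the main choice. It was 2 to 2 thinned, 1 to 1 with no other-lineage gene and 1654 to 363 with no minimum. With at least 2 markers it was 9 to 51, and 6 to 36 under the looser choice. For HGF scaffold over untreated, in the same order, it was 0 to 30, 3 to 2 and 2 to 1. It was then 1740 to 341, 9 to 77 and 5 to 43.

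The reactive list median for scaffold over untreated was -1.61 without Gfap among the markers and -0.15 with no minimum. Under the looser choice the list median of other astrocyte genes was 0.20 for HGF scaffold over scaffold, of transport and fibrous genes for scaffold over untreated 0.0473 and -0.36, and of metal binding genes for HGF scaffold over untreated -0.0194. The fibrous median was -0.18 without the richest nuclei. The share in the HGF scaffold library stayed below the others, at 0.307 to 0.653 times that in the scaffold library and 0.348 to 0.956 times that in the untreated library under the settings run. The share of astrocyte nuclei in the scaffold over the untreated library was 0.836 without nuclei holding at least 3 myeloid genes. Of single genes, 19 values changed direction. Aldoc was at -0.25 in log2 for HGF scaffold over scaffold with at least 4 markers, and Meg3 at 0.25 for scaffold over untreated with no other-lineage gene. For scaffold over untreated Prkg1 was at -0.48 thinned, -0.11 under the looser choice and -1.04 without myeloid genes, Adamtsl3 at -1.53 and Kcnip4 at 0.0105 under the looser choice. With up to 2 other-lineage genes Ncam2 was at 0.26 and Meg3 at 1.75 for HGF scaffold over scaffold, and Meg3 at 1.47, Ctnna2 at 1.10, Cp at 0.0549 and Ncam2 at 0.24 for HGF scaffold over untreated. Under the looser choice Prkg1 was at 0.36, Ncam2 at 0.25 and Meg3 at 1.53 for HGF scaffold over scaffold, and Meg3 at 0.89, Ctnna2 at 0.68 and Ncam2 at 0.26 for HGF scaffold over untreated. The cause of these changes was not tested. A further 69 values of single genes moved in size without changing direction. The remaining 507 values of single genes and 272 list medians kept their direction and size.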
